A study of Mus musculus with 7 samples.

Results

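The genes described here encode the respiratory chain (complexes I to IV) and the ATP synthase (complex V) of mitochondria, measured in quadriceps muscle of a mouse model of spinal and bulbar muscular atrophy (SBMA). Members were chosen by name alone, as the array genes called Ndufa, Ndufb, Ndufc, Ndufs or Ndufv with a number, Sdha to Sdhd, Uqcr, Cyc1, Cox4 to Cox8 or Atp5. This rule found 86 genes with 118 probes, of 31093 gene names and 39429 probes on the array. One-color microarrays held 4 WT and 3 AR113Q mice, 1 array per mouse, all C57BL/6 and 3 months old (90 days), and male as the study states for its mice. AR113Q mice are knock-in mice in which a humanized gene carries a polyglutamine tract expanded to the length in their name. Motor dysfunction appears later in this line, so the comparison addressed gene expression before the motor phenotype. The labels call the control mice WT, whereas the study also describes a knock-in control with a shorter repeat, so whether both groups share the humanized gene was not settled. The study gives the mutants a suffix, NCD, which the sources used here do not explain.

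The respiratory chain takes electrons from NADH at complex I and from succinate at complex II, passes them through complex III and cytochrome c to oxygen at complex IV, and pumps protons on the way. ATP synthase uses the returning protons to make ATP. Nuclear genes encode nearly all subunits and mitochondrial DNA a few catalytic ones, and slow and fast oxidative muscle fibers hold more of the machinery than fast glycolytic fibers. Several complex IV subunits exist as a heart and muscle form and a ubiquitous form. The 13 mitochondrially encoded subunits were looked for by name and 0 were found among the probe names used here, so every value below is for a nuclear transcript.

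The Cox8 pair and the complex II gene Sdhb show promoters of the family that differ in their motifs, from RefSeq (build GRCm38.p6), and the Cox8 pair gave the widest split of the 4 Cox isoform pairs compared below. Each sequence runs from 90 bases before to 30 bases after the annotated start. Capitals mark 4 of the motifs searched: CCGGAAG of ETS factors such as the GABP subunit Gabpa (CTTCCGG on the other strand), GCATGCGC of Nrf1, TATAAA, and the muscle E-box CAGCTG.
Cox8a (chr19:7217587-7217706, minus strand): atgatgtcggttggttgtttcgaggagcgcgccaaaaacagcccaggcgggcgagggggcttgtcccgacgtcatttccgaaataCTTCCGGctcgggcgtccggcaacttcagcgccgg
Cox8b (chr7:140900417-140900536, minus strand): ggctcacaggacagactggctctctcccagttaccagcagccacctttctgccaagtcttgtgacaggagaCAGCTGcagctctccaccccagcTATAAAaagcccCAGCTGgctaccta
Sdhb (chr4:140961181-140961300, plus strand): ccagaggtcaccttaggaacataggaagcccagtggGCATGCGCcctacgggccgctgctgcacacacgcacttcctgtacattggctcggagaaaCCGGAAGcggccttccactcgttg
The Cox8a stretch held 1 ETS motif across its start and no TATAAA or CAGCTG, whereas the muscle form Cox8b held a TATAAA and 2 CAGCTG and no ETS or Nrf1 motif. The TATAAA and 1 of the CAGCTG lie after the annotated start of Cox8b. Sdhb held 1 Nrf1 and 1 ETS motif, and a CCAAT on the other strand that is not in capitals. Over the whole 300-base window (250 before, 50 after the start, both strands), 69 of the 86 member genes had a RefSeq entry, among 27025 genes. The ETS motif was in 16 of the 69 (23.2%) against 9.93% of all promoters. The Nrf1 motif was in 10 (14.5% against 3.05%), and the Yy1 motif AAGATGGC was in 11 (15.9% against 3.19%), but in 2 (2.90% against 1.83%) when the 50 bases after the start were left out. TATAAA was in 7 (10.1% against 15.7%) and CAGCTG in 6 (8.70% against 18.3%). The other motifs were the estrogen-related receptor motif TCAAGGTCA in 2 (2.90% against 0.466%), CCAAT in 31 (44.9% against 41.1%) and ACGTG of hypoxia-inducible factors in 19 (27.5% against 21.8%). These are letter matches in a window and not shown to be bound sites.

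Of the spots on each array, 48.9% to 56.9% were well above background and 0 were saturated. All 6 skeletal muscle markers were above background on all 7 arrays.

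The subunit transcripts had smaller fold changes than the array as a whole, by their median. Of the 86 genes, 84 were tested, and all 84 were above background on all 7 arrays. Cox7b2 and Cox8c, isoforms known from testis, were not above background on any array. In the limma fit, 9 of the 84 (10.7%) had an adjusted p of at most 0.05, called past the threshold here, 5 higher and 4 lower in AR113Q. Among all 16539 genes tested, 43.6% passed, 21% higher and 22.6% lower. At an unadjusted p of 0.05 it was 10 members, against 51.6% of all genes. With 75th percentile scaling in place of quantile normalization the split was 2 higher and 3 lower, and with the authors' normalized values 9 higher and 4 lower. Only 2 members also changed by at least 1 on the log2 scale, Cox8a upward and Ndufa4l2 downward, whereas 24.3% of all genes did (11.2% upward, 13.1% downward). The all-gene count depended on the processing. It was 4021 of 16539 here, 1363 of 14871 with the authors' normalized values, 1756 with normexp background correction and 1897 without background subtraction. The 2 members were the same in these alternatives. Members and all genes were not matched for signal level. The absolute log2 fold change had a median of 0.21 over the members and 0.54 over all genes, and the median standard error was 0.19 and 0.21. The 95% interval of the log2 fold change lay within 1 of 0 for 71 of the 84 members, against 44.6% of all genes. The groups did not overlap for 13 members (15.5%, against 49.4% of all genes). Leaving out AR113Q replicate 3 raised the members past the threshold to 21, of which 16 were lower, while 45.8% of all genes passed. Because the tissue was bulk muscle, fewer cells of a type and less RNA per cell cannot be told apart.

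**Figure D1:**
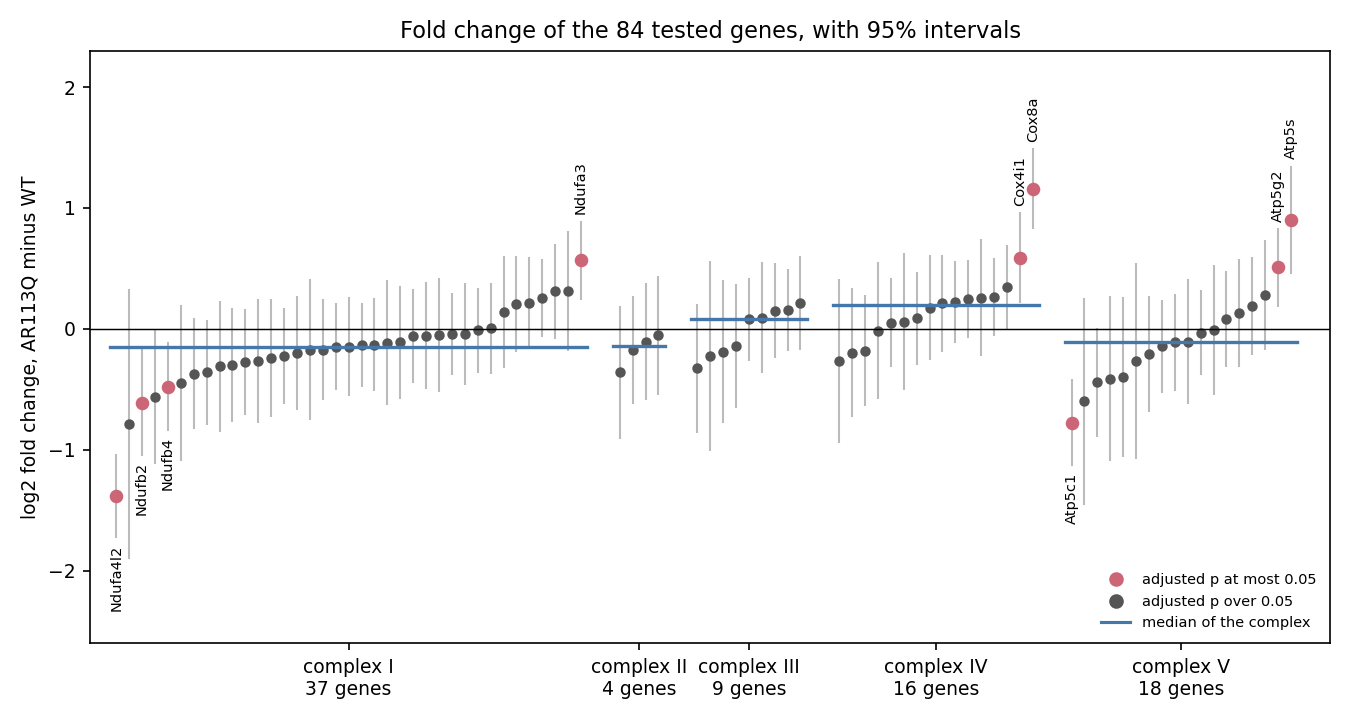
Log2 fold change (AR113Q minus WT, vertical axis) of the 84 tested genes, sorted within each complex, with 95% intervals from limma as vertical lines and the median of each complex as a horizontal line. The 9 red points have an adjusted p of at most 0.05, and most other intervals cross 0. The medians of complexes III (0.08) and IV (0.19) lie above 0 and turn below it with 75th percentile scaling (-0.12 and -0.05).

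Complex IV, cytochrome c oxidase, held the largest increase. Cox8a, the ubiquitous form of the small subunit VIII, is read by probes at chr19:7289652-7289708 and beside it (mm9). Its normalized log2 signal was 13.57, 13.88, 13.67 and 13.68 on WT replicates 1 to 4 and 14.95, 14.88 and 14.75 on AR113Q replicates 1 to 3. Every AR113Q array was thus above every WT array, with a gap wider than the spread of either group. The difference was 1.16 ± 0.15 (SE), a 2.23-fold increase (95% interval 0.82 to 1.50, limma adjusted p = 0.000725). The second Cox8a probe read 13.51, 13.54, 13.46 and 13.51 in WT and 14.69, 14.80 and 14.67 in AR113Q, a difference of 1.21. Both probes passed the threshold. Cox8b, the heart and muscle form, had signals of 16.63, 16.53, 16.52 and 16.44 in WT and of 16.34, 16.60 and 16.80 in AR113Q. Its groups overlapped, and the difference was 0.05 ± 0.16 (SE) with a limma adjusted p of 0.813 and an interval of -0.31 to 0.42.

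Cox4i1, the common form of the regulatory subunit IV, read 16.43, 16.71, 16.82 and 16.69 in WT and 17.21, 17.10 and 17.45 in AR113Q. The groups did not overlap, the difference was 0.59 ± 0.16 (SE) and the limma adjusted p was 0.0205. Scaling by the 75th percentile left 0.03 of that difference and ended the call, as did leaving out WT replicate 1. The lung form Cox4i2 was 0.06 and far from the threshold (adjusted p = 0.862 by limma). In total 12 of 16 complex IV genes had a positive difference with a median of 0.19, but 7 of 16 and -0.05 with 75th percentile scaling. Without AR113Q replicate 3 it was 9 of 16 and 0.024. The groups did not overlap for 5 of 16 genes of the complex (31.25%, against 49.4% of all genes). Besides Cox8a and Cox4i1, these included 3 more genes. They were Cox7c (0.34), the muscle form Cox6a2 (0.26) and Cox7a2l (0.25), which takes part in supercomplex assembly, and their limma adjusted p-values were 0.0985, 0.168 and 0.185. With the authors' normalized values Cox7c and Cox7a2l passed, as higher, and Cox7c also with an intensity trend in the variance. The Cox7c probe is annotated to another chromosome than the gene, and the other kept Cox7c probe gave -0.08. The other isoforms did not pass either, with 0.22 for Cox6a1, 0.17 for Cox6b1, -0.20 for the testis form Cox6b2, 0.26 for the muscle form Cox7a1, 0.21 for Cox7a2 and -0.26 for Cox7b.

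Genes were assigned to complexes by name. On this basis complex I, the NADH dehydrogenase, had 4 of 37 genes past the threshold (10.8%, against 43.6% of all genes), 1 higher and 3 lower. Ndufa4l2, a paralog of Ndufa4 known as a hypoxia-inducible gene, is read at chr10:126954149-126954208 (mm9). Its signals were 10.22, 10.24, 10.38 and 10.19 in WT and 8.78, 8.76 and 9.08 in AR113Q. All AR113Q arrays lay more than 1 log2 unit below the lowest WT array. The difference was -1.39 ± 0.15 (SE), which leaves 38.3% of the WT level (95% interval -1.73 to -1.04, limma adjusted p = 0.000421). Ndufa4 itself, since assigned to complex IV, was -0.06 (adjusted p = 0.797 by limma, interval -0.45 to 0.33). Both Ndufa4 and Ndufa4l2 are counted under complex I here because of their names. Ndufa3, an accessory subunit, read 15.93, 15.94, 16.15 and 16.06 in WT and 16.53, 16.55 and 16.69 in AR113Q. It rose without overlap by 0.57 ± 0.14 (SE) (limma adjusted p = 0.0134), and by 0.19 with 75th percentile scaling, which was not past the threshold.

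The accessory membrane arm subunit Ndufb2 read 11.55, 11.79, 11.59 and 11.36 in WT and 10.63, 11.03 and 11.23 in AR113Q. The groups were close but did not overlap, and the difference was -0.61 ± 0.19 (SE) (limma adjusted p = 0.0332). Ndufb4, of the same arm and singled out after its values were seen, read 15.58, 15.31, 15.48 and 15.28 in WT and 14.74, 14.97 and 15.09 in AR113Q, a difference of -0.48 ± 0.16 (SE) (limma adjusted p = 0.0405). Its second probe gave -0.26 and did not pass. The calls of Ndufb2 and Ndufb4 were the least stable of the 9, being kept in 13 and 12 of 21 alternative settings. Leaving out single arrays ended the Ndufb2 call for 5 of the 7 arrays and the Ndufb4 call for 6 of the 7, with AR113Q replicate 3 among the arrays whose removal kept both.

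The redox core of complex I carries the flavin and iron-sulfur centers. All 8 Ndufs genes, among them the accessory subunits Ndufs4, Ndufs5 and Ndufs6, had a negative difference, from -0.04 to -0.45, and 0 passed the threshold in limma, nor did any pass at an unadjusted p of 0.05. The single Ndufs5 probe is annotated to another chromosome than the gene. Ndufs1, the largest core subunit, read 15.05, 15.21, 15.35 and 14.99 in WT and 14.42, 14.71 and 15.37 in AR113Q. AR113Q replicates 1 and 2 were below all WT arrays and replicate 3 was above them all. Ndufs8 had the same layout, with 13.07, 13.16, 13.33 and 12.97 in WT and 12.16, 12.50 and 13.39 in AR113Q. Neither difference passed (-0.31 ± 0.24 (SE) and -0.45 ± 0.28 (SE), limma adjusted p = 0.319 and 0.23). Without AR113Q replicate 3 both passed, as lower in AR113Q. The others were -0.04 for Ndufs3, -0.20 for Ndufs7, 0.31 for the NADH-binding Ndufv1 and -0.37 for Ndufv2, none past the threshold. Ndufv2 passed, as lower, without AR113Q replicate 3 (-0.56), and Ndufv1, as higher, with the authors' normalized values (0.44). In total 29 of 37 complex I genes had a negative difference and the median was -0.15. It was -0.04 without AR113Q replicate 1 and -0.30 without AR113Q replicate 3.

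Complex II, succinate dehydrogenase, also belongs to the Krebs cycle and has only nuclear subunits. The flavoprotein Sdha was -0.18, the iron-sulfur subunit Sdhb -0.11, and the membrane anchors Sdhc and Sdhd -0.06 and -0.36, with 0 of 4 past the threshold in limma and 0 at an unadjusted p of 0.05. Sdhb, whose promoter is shown above, read 15.35, 15.47, 15.56 and 15.21 in WT and 14.85, 15.39 and 15.63 in AR113Q. AR113Q replicate 1 was the lowest of the 7 arrays and AR113Q replicate 3 the highest. Complex III, the cytochrome bc1 complex, had 0 of 9 genes past the threshold, 0 also without adjustment. Cyc1, its cytochrome c1, read 15.22, 15.62, 15.55 and 15.32 in WT and 14.65, 14.84 and 16.13 in AR113Q, again with AR113Q replicates 1 and 2 at the bottom and replicate 3 at the top. The Rieske protein Uqcrfs1 was -0.33, the core proteins Uqcrc1 and Uqcrc2 -0.14 and -0.19, and the largest positive values were 0.21 for Uqcr11 and 0.16 for Uqcr10. The complex III median was 0.08, and -0.12 with 75th percentile scaling. Leaving out AR113Q replicate 3 put Sdhd, Cyc1 and Uqcrfs1 past the threshold, all lower.

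Complex V had 3 of 18 genes past the threshold (16.7%, against 43.6% of all genes). Atp5s, also called factor B, is coupled to the synthase but is no structural subunit, and read 6.23, 6.24, 6.18 and 6.06 in WT and 7.50, 6.79 and 6.94 in AR113Q. Each AR113Q array was higher than each WT array, by 0.90 ± 0.20 (SE) on average (limma adjusted p = 0.0074). Atp5c1, the gamma subunit of the rotating stalk, read 11.21, 11.17, 11.12 and 11.01 in WT and 10.11, 10.39 and 10.54 in AR113Q through its brightest probe. That probe fell by 0.78 ± 0.16 (SE, limma adjusted p = 0.00529), but the other Atp5c1 probe gave 0.16, and both are annotated to chromosome 13, where the gene is not located. Their mean over probes was -0.31 and did not pass. The c-ring gene Atp5g2 had the same problem. Its brightest probe read 16.12, 15.87, 15.95 and 15.92 in WT and 16.57, 16.41 and 16.44 in AR113Q, a rise of 0.51 ± 0.14 (SE) (limma adjusted p = 0.0209), and the other gave -0.34, with both annotated off the gene's chromosome. Leaving out WT replicate 2, 3 or 4 ended its call, as did 75th percentile scaling (0.14) and the mean over probes (0.08). Signal of such probes cannot be assigned to the gene or to a copy of it. The other c-ring genes Atp5g1 and Atp5g3, which encode the same mature peptide, were -0.11 and -0.01 and did not pass. The catalytic subunits Atp5a1 (-0.11) and Atp5b (-0.44) had limma adjusted p-values of 0.727 and 0.102. With normexp background correction Atp5b passed, as lower (-0.46). Atp5b read 15.40, 15.76, 15.12 and 15.32 in WT and 14.80, 14.86 and 15.21 in AR113Q, and its groups overlapped through AR113Q replicate 3. The name rule also took in Atp5sl (0.08), an assembly protein of complex I, and the pseudogene Atp5c1-ps (-0.27), neither past the threshold. The Atp5c1-ps probe (chr13:77808693-77808752, mm9) lies close to the brightest Atp5c1 probe (chr13:77808314-77808373), on the same strand. Leaving out all probes annotated to another chromosome left 78 members, of which 7 passed.

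**Figure D2:**
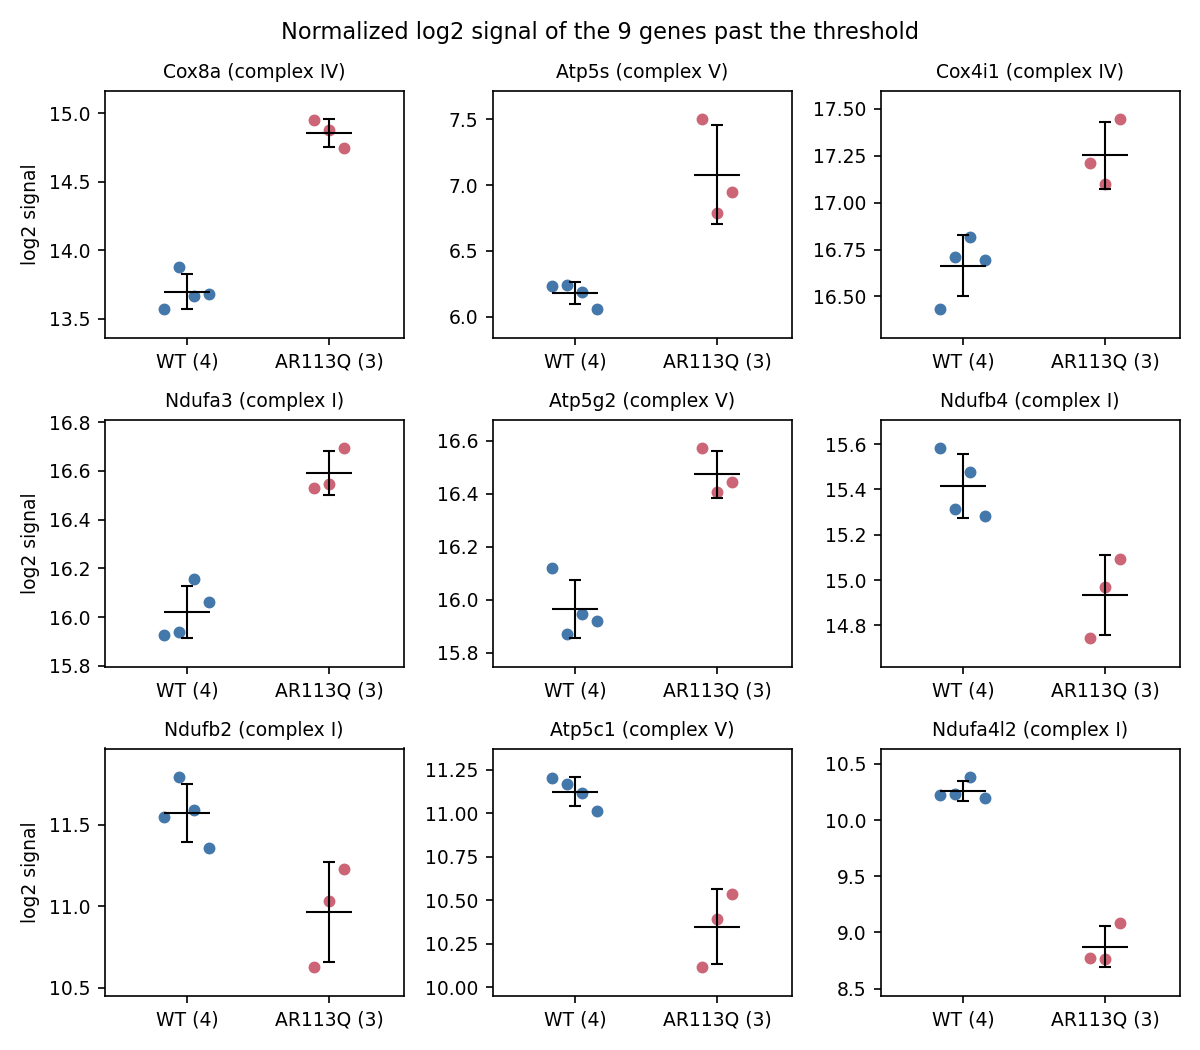
Normalized log2 signal (vertical axis, own scale in each panel) of the 9 genes past the threshold on each of the 4 WT (blue) and 3 AR113Q (red) arrays, drawn in replicate order, with the mean and SD in black. In each panel the 2 groups do not overlap, with the largest mean differences for Cox8a (1.16) and Ndufa4l2 (-1.39).

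The 9 calls differed in how well they held over 21 alternative settings other than slide as a fixed effect (20 for Atp5c1 and Atp5g2, whose probes are left out in 1). Cox8a, Ndufa4l2 and Atp5s passed in all 21. Cox8a ranged from 1.10 to 1.22 and Ndufa4l2 from -1.48 to -1.22, and Atp5s from 0.35 to 1.04. Ndufa3 passed in 19, Cox4i1 in 18, Atp5c1 in 19 of 20 and Atp5g2 in 14 of 20. The arrays came from 5 slides, and only on slide 2 could the genotypes be compared directly, between AR113Q replicate 1 and WT replicate 2. Within it the differences were 1.07 for Cox8a, -1.46 for Ndufa4l2 and 1.26 for Atp5s, with 1 array of each genotype and no test. They were 0.50 for Cox4i1, 0.59 for Ndufa3, 0.70 for Atp5g2, -0.57 for Ndufb4, -1.17 for Ndufb2 and -1.05 for Atp5c1. All 9 had the direction of the whole comparison. This was fixed in advance, because their groups do not overlap and both arrays are part of that comparison. With slide as a fixed effect 0 members and 0 of all genes passed in limma (19 members and 6180 genes at an unadjusted p of 0.05). With slide as a random effect 9 members passed, the same 9.

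Since isoforms can replace each other within a complex, the change of 1 isoform relative to its partner was compared within each array over 5 pairs. Exact two-sided permutation tests of 4 against 3 arrays cannot go below p = 0.0571 here, so none could pass 0.05. Relative to the WT mean, Cox8a minus Cox8b was -0.22, 0.18, -0.02 and 0.07 in WT and 1.44, 1.11 and 0.78 in AR113Q. All AR113Q arrays thus lay above all WT arrays, by 1.11 on average (exact permutation p = 0.0571, Benjamini-Hochberg adjusted 0.143, n = 4 and 3). Ndufa4l2 minus Ndufa4 was lower without overlap, with a mean change of -1.33 (exact permutation p = 0.0571, adjusted 0.143). Cox4i2 minus Cox4i1 changed by -0.53 with overlap (exact permutation p = 0.114, adjusted 0.190). The muscle against ubiquitous pairs of subunits VIa and VIIa showed no such gap. Cox6a1 minus Cox6a2 changed by -0.04 (exact permutation p = 0.8) and Cox7a2 minus Cox7a1 by -0.05 (exact permutation p = 0.686), with the AR113Q arrays on both sides of 0.

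**Figure D3:**
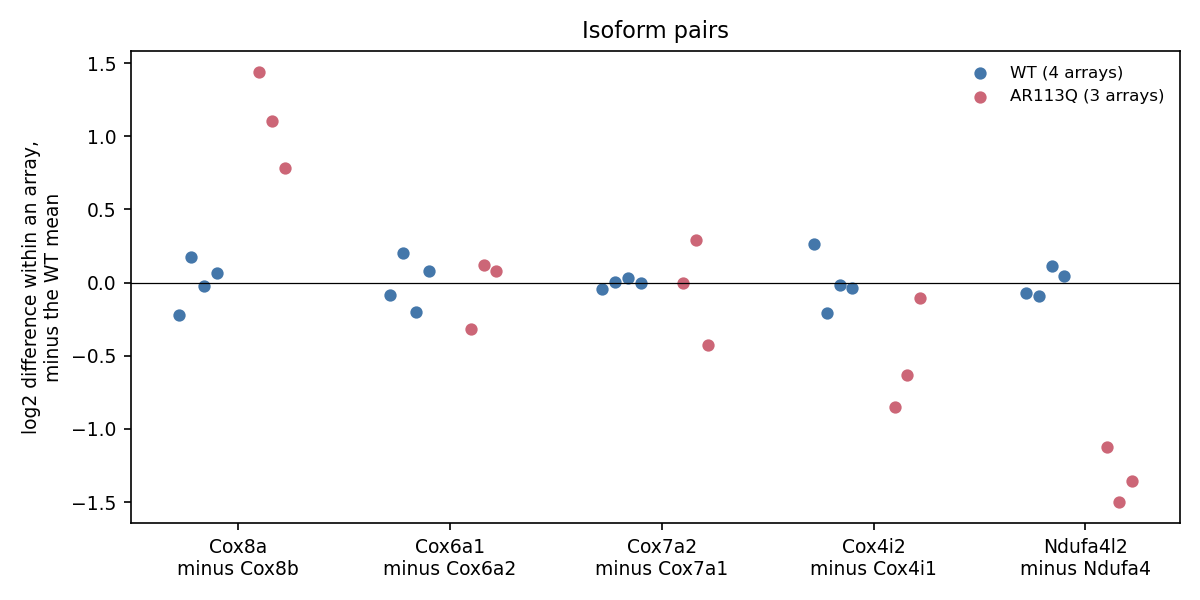
Log2 difference between the isoforms of 5 pairs within each array, minus the WT mean (vertical axis), for 4 WT (blue) and 3 AR113Q (red) arrays in replicate order. Cox8a against Cox8b (1.11) and Ndufa4l2 against Ndufa4 (-1.33) separate the groups, and the other pairs overlap.

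The subunit transcripts of each array tended to lie together above or below the WT mean, with a wider spread over the AR113Q arrays (SD 0.284, n = 3) than over the WT arrays (SD 0.0713, n = 4), a difference that was not tested. The median deviation of the 84 members from the WT mean was -0.0473, 0.0417, 0.0823 and -0.0671 on WT replicates 1 to 4 and -0.331, -0.0924 and 0.234 on AR113Q replicates 1 to 3. AR113Q replicate 1 was thus below all WT arrays and replicate 3 above all of them. AR113Q replicate 1 was the lowest of its group in 61 of 84 members (72.6%, against 33.7% of all genes), and replicate 3 the highest in 64. The same order of the 3 arrays held in each complex, from -0.39 to 0.16 for complex I, -0.52 to 0.22 for complex II, -0.12 to 0.36 for complex III, -0.11 to 0.33 for complex IV and -0.42 to 0.27 for complex V. The 7 members that were highest on AR113Q replicate 1 went against it, Cox8a and Atp5s among them.

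Markers of oxidative fibers were highest on the same AR113Q array as the subunits. The log2 of the summed signal of 9 slow fiber genes was 12.6, 15.1, 15.2 and 12.7 in WT and 12.6, 12.7 and 16.4 in AR113Q, and that of the fast oxidative genes Myh2 and Myh1 was 14.2, 16.0, 15.8 and 14.5 and 14.5, 14.5 and 17.1. AR113Q replicate 3 was highest in both, and WT replicates 2 and 3, whose subunit medians were the higher of the WT group, came next. Among the 9 slow fiber genes 1 passed the threshold (Atp2a2, higher), and 0 of the 2 fast oxidative ones. Of the slow genes, Tnni1 was above background on 5 arrays, Myh7b on 3 and the others, Myh7 included, on all 7. Summed muscle markers were 19.1 to 19.3 in WT and 18.3 to 19.3 in AR113Q, lowest on AR113Q replicate 1, with 2 of 6 lower (Ckm and Ttn), and 2 of 9 fast glycolytic genes were lower (Mylpf and Atp2a1), but 7 of 9 with 75th percentile scaling. Adipocyte markers summed to 15.0 to 16.0 in WT and 13.8 to 14.5 in AR113Q, with 4 of 6 lower and Cidea higher, and the brown fat marker Ucp1 was above background on 1 array only. Of the fibroblast markers 3 of 5 were lower, and of the macrophage markers 2 of 4 were lower and 1 higher. For endothelial markers 1 of 4 passed, for Schwann cell markers 2 of 3, for cardiomyocyte markers 0 of 2 and for erythrocyte markers 0 of 3. Among all genes 43.6% passed (22.6% lower), so such counts in short lists do not by themselves show a shift of a cell type. With the summed slow fiber signal as a covariate 9 members passed, the same 9 as without it. The mean of that signal hardly differed between the genotypes, so this fit could change the differences little. Beyond this fit, the part of these cells and fibers in the subunit values was not tested.

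**Figure D4:**
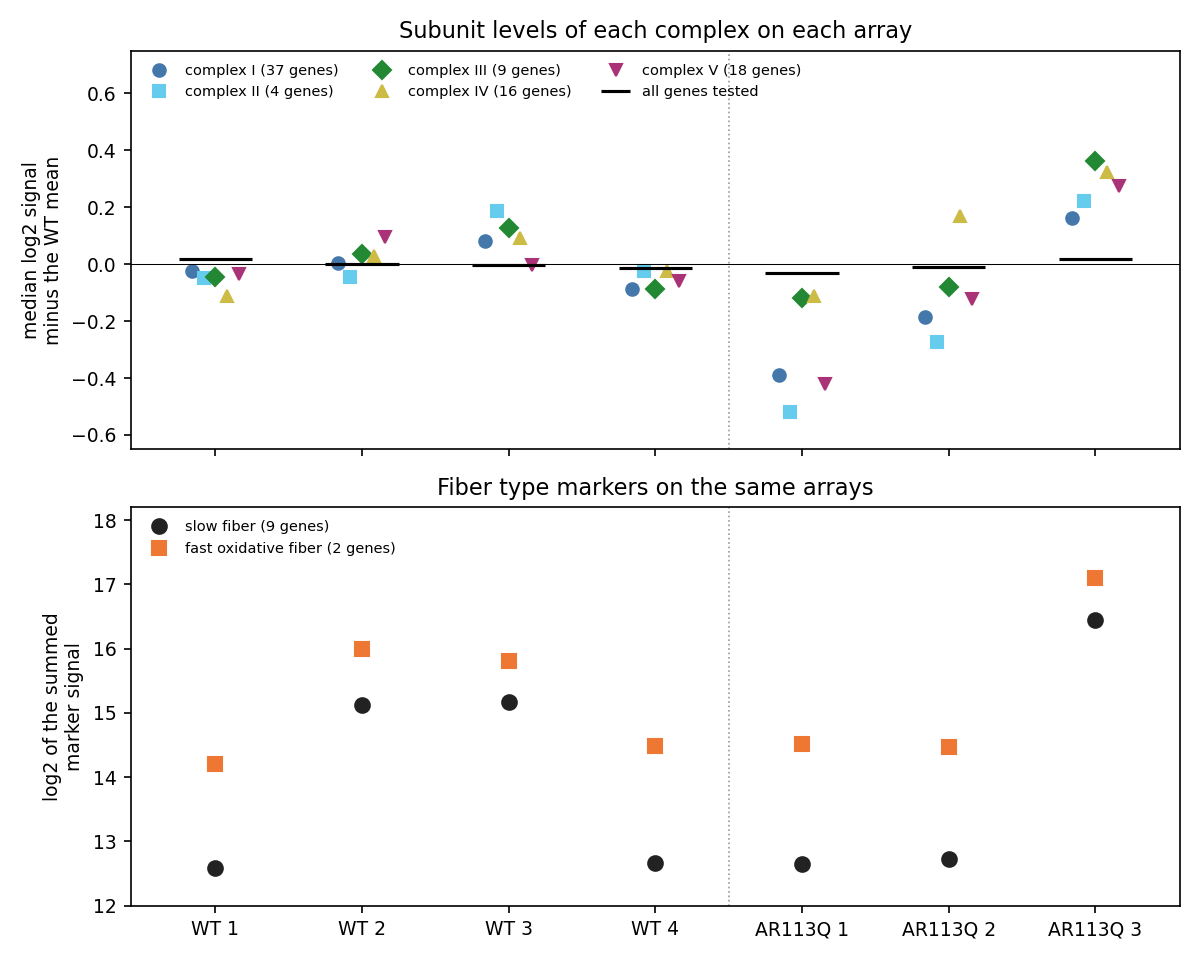
Upper panel, median log2 signal of the tested genes of each complex minus the WT mean (vertical axis) on each array, with all genes tested as black lines. Lower panel, log2 of the summed signal of slow and fast oxidative fiber markers on the same arrays. AR113Q replicate 3 is high in both panels (members 0.234, slow fiber 16.4) and AR113Q replicate 1 is low in the upper one (members -0.331).

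Assembly factors, which build the complexes without staying in them, were mostly lower where they changed. Of 41 tested, 13 (31.7%, against 43.6% of all genes) passed, 12 lower and 1 higher, with a median of -0.43, and their difference from the subunits (10.7%) was not tested. With the authors' values it was 15 lower and 1 higher, and without AR113Q replicate 3, 22 lower and 0 higher, against 7 lower without WT replicate 1. For complex II, the 4 assembly factors had 3 genes past the threshold while the 4 subunits had 0. Sdhaf4 read 11.33, 11.07, 11.65 and 11.38 in WT and 8.70, 9.80 and 10.73 in AR113Q, and fell without overlap (-1.61 ± 0.42 (SE), limma adjusted p = 0.0157). Sdhaf3 was -0.84 (limma adjusted p = 0.00445) and Sdhaf1 -0.51 (0.0392). The complex III factors Uqcc3 (-0.85), Bcs1l (-0.96), which inserts the Rieske protein, and Ttc19 (-0.96) were lower, as 3 of 5 tested. In complex IV, 3 of 16 were lower, namely Coa6 (-1.34), Taco1 (-1.31) and Cox11 (-0.84), which deliver copper or aid translation of a catalytic subunit, and the heme synthesis gene Cox10 (0.66) was higher. In complex I, 3 of 13 were lower (Timmdc1, Ndufaf3 and Ecsit, from -0.79 to -0.47), and 0 of 3 complex V factors passed. The complex I count was 0 without WT replicate 1 and 8 without AR113Q replicate 3. Removing the latter gave 4 of 4, 5 of 5 and 5 of 16 for complexes II, III and IV, all lower. Of all genes, 34.5% passed without WT replicate 1 and 45.8% without AR113Q replicate 3.

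Of 4 subunits or partners that the name rule misses, 1 passed (25%, against 43.6% of all genes). This was Ndufab1, the acyl carrier protein of complex I, with 7.94, 8.30, 8.49 and 8.73 in WT and 6.74, 7.19 and 8.08 in AR113Q. Its groups overlapped at 1 WT array, and it was lower in AR113Q, with a difference of -1.03 ± 0.33 (SE) (limma adjusted p = 0.0345). The count of these 4 genes past the threshold was 0 when WT replicate 2, 3 or 4 or AR113Q replicate 1 or 2 was left out, and with the authors' values it was 1 higher and 0 lower. Enzymes that feed electrons to ubiquinone or make it had 5 of 16 past the threshold (31.25%, against 43.6% of all genes). The count was 10 without AR113Q replicate 3 (8 of them lower), 3 without WT replicate 1 or AR113Q replicate 1, and 8 with the authors' values. Etfdh, the entry point for fatty acid oxidation, read 11.98, 12.07, 12.61 and 12.04 in WT and 13.15, 12.93 and 13.79 in AR113Q and rose (1.12 ± 0.25 (SE), limma adjusted p = 0.00841), as did its partner Etfa (0.68). Gpd2 (-1.25) of the glycerol phosphate shuttle, Dhodh (-1.25) of pyrimidine synthesis and Coq2 (-0.54) of ubiquinone synthesis fell. In the Krebs cycle 2 of 14 passed (14.3%, against 43.6% of all genes), 1 higher and 1, Idh3a (-0.89), lower. The lower call was lost, leaving 0 lower, when any 1 of the WT arrays or AR113Q replicate 1 or 2 was left out, with 75th percentile scaling, and with the authors' values, which gave 3 higher. Of the outer membrane and import genes 3 of 12 passed (25%, against 43.6% of all genes), Tomm40 (0.59) higher and Hspd1 (-0.86) and the porin Vdac3 (-0.64) lower. Without WT replicate 3 or 4 or AR113Q replicate 1 it was 1 of 12.

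Regulators of mitochondrial biogenesis passed in 7 of 15 cases (46.7%, against 43.6% of all genes), 5 higher and 2 lower. Nrf1, a transcription factor of many subunit genes, read 7.46, 7.09, 7.60 and 7.46 in WT and 8.87, 8.57 and 8.67 in AR113Q. It rose without overlap (1.30 ± 0.17 (SE), limma adjusted p = 0.000894). Gabpa, an ETS factor, read 6.78, 6.75, 7.02 and 7.06 and 8.41, 7.50 and 8.05 and also rose (1.08 ± 0.23 (SE), limma adjusted p = 0.00634). Ppard (1.10), Pprc1 (0.63) and Yy1 (0.61) were higher too. Perm1, a muscle coregulator induced by PGC-1, read 11.41, 12.21, 12.19 and 11.90 in WT and 7.77, 9.14 and 11.39 in AR113Q and was lower (-2.49 ± 0.72 (SE), limma adjusted p = 0.0245), with AR113Q replicate 3 close to WT. Tfb1m, which acts in mitochondrial ribosome assembly, was lower (-1.05). Ppargc1a (-0.37), Esrra (-0.54), Tfam (-0.06) and Ppara (1.30) did not pass, with limma adjusted p-values of 0.427, 0.161, 0.826 and 0.0711. Without AR113Q replicate 1 it was 4 of 15 that passed. The median over the 15 was 0.26, and -0.29 without AR113Q replicate 3.

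**Figure D5:**
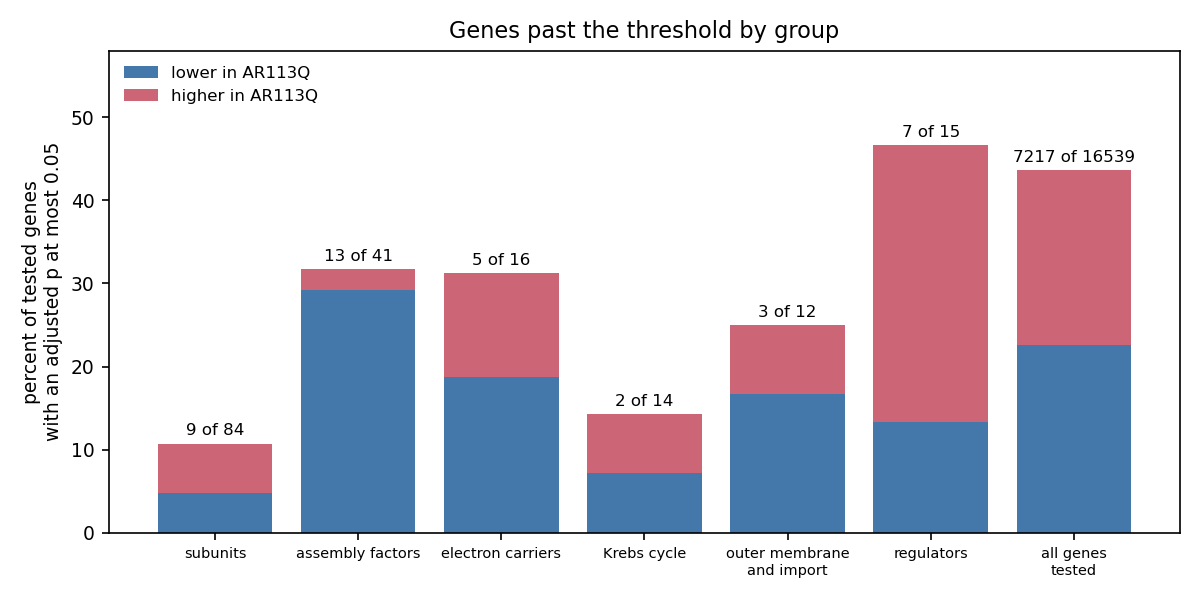
Percent of tested genes with an adjusted p of at most 0.05 in limma (vertical axis), split into lower (blue) and higher (red) in AR113Q, for the subunits, the gene lists drawn and all genes tested, with the counts above the bars. Among the groups drawn, the subunits have the shortest bar (9 of 84), and regulators and all genes the tallest. With 75th percentile scaling the subunit bar would be 5 of 84. The rank of the subunits did not hold in all settings. Without AR113Q replicate 3 they were at 25% and the Krebs cycle at 14.3%, and without WT replicate 4 at 8.33% and 7.14%.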

How the data were processed

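Total RNA of quadriceps from 7 mice (4 WT, 3 AR113Q, grouped by the genotype label) was hybridized to one-color Agilent mouse arrays with 1 array per mouse. The deposited scanner files hold Cy3 intensity values, background-subtracted and detrended within each array by Feature Extraction (version 10.7.3.1 in the submitters' processing notes). The authors also deposited normalized log2 values of 18592 probes, quantile normalized per their methods, which served as an alternative and matched the scanner files by probe name. Starting from the processed signal intensities, outlier spots were removed, log2 was taken, arrays were quantile normalized and spots of a probe averaged. A probe was kept if well above background on at least 3 arrays (20948 probes), and the brightest kept probe stood for each gene name (16539 genes). A linear model per gene with moderated variances was fitted in limma (version 3.58.1, R 4.3.3), and p-values were adjusted by Benjamini-Hochberg across the 16539 genes, with a threshold of 0.05. Fold changes are AR113Q minus WT on the log2 scale. Their precision is limited by the number of arrays. The labels do not tie mice to litters, and p-values measure the spread between these mice. The fit was tested on simulated data with 16539 genes of this comparison: it recovered 31% of 200 genes with a log2 change of 1 (5 false calls) and 80.5% of 200 with a change of 2 (7 false calls). Only 200 genes were changed there, whereas 43.6% of all genes passed in the data. The adjusted threshold is stricter when few genes change, so these shares do not give the sensitivity of this comparison.

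Members and gene lists were chosen with earlier results of these data known. Genes described by name were the complex IV isoforms with Ndufa4 and Ndufa4l2, the redox, catalytic and c-ring subunits, in each complex the 3 largest changes past the threshold and the 2 largest increases, genes whose probes disagreed, and name matches that are no subunit or not above background. Ndufb4, Cox7c and members named for a change without AR113Q replicate 3 were added after their values were seen. Genes of the other lists are those past the threshold, with well-known regulators. Of the member probes, 114 matched RefSeq by accession and 4 by symbol. Probe positions are mm9 as annotated in the files, and of the 118, 86 lie on the chromosome of the gene, 24 on another and 8 are unmapped. Of 23 genes with several kept probes, 17 had the same sign over all of them. Alternatives covered scaling, background, filter, probe choice, variance model, slide, single arrays and replicate number. Leaving out probes on another chromosome and a slow fiber covariate, whose mean hardly differed between genotypes, were added after seeing the data. Replicate numbers were shared between genotypes but did not pair the mice. The arrays came from 5 slides and were scanned on 1 day. The targeted gene and some genes of the lists are not reported here by name.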

Additional observations from a re-analysis of the deposited data

Results flagged for a closer look

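Of 48 groups of array values checked, 1 held an array far from the rest. For the median deviation of the 4 complex II genes from the WT mean, WT replicate 3 was at 0.188 while the other WT arrays lay between -0.05 and -0.02. Chance alone sets about 1 in 20 such groups apart. WT replicate 3 was also high for slow fiber markers (15.2), together with WT replicate 2 (15.1), and their part in the complex II value was not tested.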

How the results depend on the processing

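The direction of the 8 threshold-passing genes named by the rule was kept in each alternative that was run. The member genes higher in AR113Q numbered 5, and 2 with 75th percentile scaling, 9 with the authors' normalized values, 0 with slide as a fixed effect and 4 to 5 when single arrays were left out. The member genes lower in AR113Q numbered 4, and 2 with no filter on dim probes, 2 with the mean over probes, 0 with slide as a fixed effect and 2 to 16 when single arrays were left out, the 16 without AR113Q replicate 3. Removing any 1 of WT replicates 1 to 3 or of AR113Q replicates 1 and 2 gave 2. The 2 members past both thresholds became 0 with slide as a fixed effect and 9 with no fold threshold. With slide as a fixed effect, which equals the difference within slide 2, the medians of complexes I to V were -0.35, -0.56, -0.34, -0.13 and -0.47. With 75th percentile scaling the 5 medians were -0.30, -0.18, -0.12, -0.051 and -0.22, the members with a negative difference rose from 53 to 67 of 84, and that scaling moved the median of all genes from -0.01 to -0.08. Leaving out single arrays gave complex I medians of -0.30 to -0.04, complex II -0.33 to 0.02, complex III -0.09 to 0.10, complex IV 0.024 to 0.24 and complex V -0.27 to 0.02. The causes were not tested.

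With the replicate block, over the numbers that both genotypes share, 2 members were higher and 2 lower, and 33.5% of all genes passed. Arrays of the same number had deviations that correlated at 0.04, -0.02 and 0.16, so the numbers were not taken to pair the mice. The 35 named genes not past the threshold had 770 values in other settings, of which 9 passed and 38 had another sign without passing.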
